A study of Homo sapiens with 18 samples.

Results

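The 10 chemokine genes described here are ligands that epithelial cells can secrete, read in MCF10A, a human breast epithelial cell line, established and not tumour-forming. They were chosen by name, with earlier results of these data known. CXCL9, CXCL10, CXCL11 and CCL5 are the 4 interferon-type members, and CCL20, CXCL1, CXCL2, CXCL3, CXCL8 and CX3CL1 the 6 NF-kB-type members. All 10 had a probe set with a single gene symbol, among 18404 genes on the array. The data were 18 Affymetrix whole-transcript arrays in 6 groups of 3, given as log2 intensities.

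All cells had been infected with lentivirus at a multiplicity of 5, selected with puromycin at 1.5 µg/ml for 4 days, left at least 7 days, transfected transiently with plasmid cDNA, and lysed after 5 days in a medium containing estrogen. The hairpin was non-targeting (shNT) in 4 groups, which received control cDNA (the control arrays), YAP/TAZ cDNA, ESR1 cDNA, or YAP/TAZ and ESR1 cDNA together. The remaining groups received control cDNA and carried the hairpin shLATS1B against LATS1 or the hairpins labelled shLATS1+2. The kinases LATS1 and LATS2 of the Hippo pathway hold back the co-activators YAP and TAZ, and ESR1 is estrogen receptor alpha. Which hairpin clones or vectors were used, and whether the 3 arrays of a group came from separate cultures, is not given in the sources used here, so a p-value here reflects only how far these arrays spread, which may be technical. Because transfection was transient, a group holds cells with and without the cDNA, and fewer cells with a transcript cannot be told apart from less of it per cell.

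Chemokines are small secreted proteins that draw cells bearing their receptors along a gradient. CXCL9, CXCL10 and CXCL11 share the receptor CXCR3 of activated T and NK cells, and CCL5 draws T cells and monocytes; these genes are classical targets of interferons through STAT and IRF factors, often together with NF-kB. CXCL1, CXCL2, CXCL3 and CXCL8 draw neutrophils through CXCR2, CCL20 draws cells with CCR6, and CX3CL1, held on the membrane by a stalk, binds CX3CR1. These are induced chiefly by NF-kB after signals such as TNF or interleukin-1, and CX3CL1 answers interferon gamma as well, so its place in the NF-kB-type class is a convention of the rule.

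The label check bears on every group name used below. LATS1 read 8.86 ± 0.086 (SD, n = 3) in the control arrays against 7.66 ± 0.13 in the shLATS1B and 7.76 ± 0.090 in the shLATS1+2 arrays, whereas LATS2 read 7.73 ± 0.10 in the control and 7.82 ± 0.090 in the shLATS1+2 arrays. With YAP/TAZ cDNA alone, YAP1 and WWTR1, the gene of TAZ, differed from control by -0.05 and -0.13 and did not pass the test. With both cDNAs WWTR1 rose by 0.42 against control (adjusted p 0.0015 by limma) and by 0.79 against ESR1 cDNA. YAP1 with both read 0.04 above control and rose by 0.32 against ESR1 cDNA. With ESR1 cDNA alone, WWTR1 and YAP1 differed from control by -0.37 and -0.28 (adjusted p 0.0078 and 0.014 by limma). WWTR1 also rose by 0.43 in the shLATS1B arrays, which received no such cDNA. Whether these probe sets read the targeted or transfected sequences was not tested. ESR1 was higher than in the control arrays by 0.94 with ESR1 cDNA, by 0.50 with both and by 0.85 and 0.88 in the knockdown groups. Group names therefore stand for arrays so labelled. The first principal component held 47.3% of the variance over genes and put the control, YAP/TAZ and ESR1 arrays at scores from -23.0 to -10.3 and the other 9 arrays from 9.83 to 22.7. The labels give no batch, so for a change that follows this division, group and preparation cannot be told apart. The 10 measured markers of mammary epithelium all lay above the dim limit defined below in every group. Of these, 1 rose and 2 fell against control with YAP/TAZ cDNA, and 1 rose and 3 fell with ESR1 cDNA. With both, 4 rose and 5 fell, and in each knockdown 3 rose and 5 fell. Of all genes, 7%, 18.9%, 29.4%, 24% (shLATS1B) and 24.8% (shLATS1+2) passed the test in that order. What part the markers had in the chemokine changes was not tested. The leukocyte marker PTPRC read 4.37 to 4.51 over the 18 arrays.

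The upstream sequences of the members are shown because CXCL9 stayed dim beside CXCL10 with the same motif upstream, and CXCL3 beside CXCL1 and CXCL2 with similar letters. Of the 10 genes, 8 had an entry among the RefSeq promoters of assembly GRCh38.p14; CCL5 and CX3CL1 were not among them. The 250 bases before the start site are given 5′ to 3′ on the gene's own strand for CXCL9 at chr4:76007510-76007759 (minus strand), CXCL10 at chr4:76023498-76023747 (minus strand), CXCL11 at chr4:76036071-76036320 (minus strand) and CCL20 at chr2:227813592-227813841 (plus strand). Capitals mark matches to an interferon-type motif, GAAANNGAA, which overlaps the core of the element bound by ISGF3 and IRF factors, or to a kB-type motif, GGANNTTCC; both were chosen with these sequences in view.
CXCL9: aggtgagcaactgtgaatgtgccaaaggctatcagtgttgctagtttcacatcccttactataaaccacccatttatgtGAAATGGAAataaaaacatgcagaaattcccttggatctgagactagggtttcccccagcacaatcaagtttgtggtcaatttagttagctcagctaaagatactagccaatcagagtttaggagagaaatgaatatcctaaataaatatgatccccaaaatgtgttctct
CXCL10: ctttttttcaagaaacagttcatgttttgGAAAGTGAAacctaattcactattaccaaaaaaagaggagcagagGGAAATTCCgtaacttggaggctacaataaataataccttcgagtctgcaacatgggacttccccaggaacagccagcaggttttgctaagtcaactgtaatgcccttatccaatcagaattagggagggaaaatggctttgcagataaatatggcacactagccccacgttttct
CXCL11: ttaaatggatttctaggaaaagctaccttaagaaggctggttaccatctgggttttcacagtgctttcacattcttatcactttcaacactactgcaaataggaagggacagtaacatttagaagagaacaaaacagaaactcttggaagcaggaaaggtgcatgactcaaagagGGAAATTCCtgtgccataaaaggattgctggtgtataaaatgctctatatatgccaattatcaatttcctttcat
CCL20: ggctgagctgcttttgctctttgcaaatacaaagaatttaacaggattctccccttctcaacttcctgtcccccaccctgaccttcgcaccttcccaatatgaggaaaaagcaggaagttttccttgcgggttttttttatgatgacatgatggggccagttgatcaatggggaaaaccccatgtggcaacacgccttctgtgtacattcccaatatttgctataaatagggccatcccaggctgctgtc

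Both strands of all 35116 promoters in the table were searched over the same 250 bases. GAAANNGAA was present in 6.88% of them and, among the 8 members with an entry, in CXCL9 (bases -171 to -163 from the start), CXCL10 (-221 to -213), CXCL2 (-217 to -209) and CXCL3 (-233 to -225). GGANNTTCC was present in 3.84% of promoters and in CXCL10, CXCL11, CXCL1, CXCL2, CXCL3 and CXCL8. In CXCL10 (-176 to -168) and CXCL11 (-75 to -67) the match was GGAAATTCC, and in CXCL1, CXCL2, CXCL3 and CXCL8 it was GGAATTTCC, between bases -91 and -69. CCL20 matched neither pattern in this window, but a fixed pattern misses sites spelled with other letters, so no match does not mean no site. These matches describe letters, not bound sites.

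CXCL1, CXCL2 and CXCL3 share a longer run around that match, GGGAATTTCCC, which was picked out after these sequences had been seen and, on either strand, was present in 27 of the 35116 promoters (0.0769%). The 100 bases next to the start are given for CXCL1 at chr4:73869293-73869392 (plus strand), CXCL2 at chr4:74099196-74099295 (minus strand) and CXCL3 at chr4:74038690-74038789 (minus strand), with that run in capitals.
CXCL1: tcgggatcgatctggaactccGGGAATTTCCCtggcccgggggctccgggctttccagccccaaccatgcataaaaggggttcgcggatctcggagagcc
CXCL2: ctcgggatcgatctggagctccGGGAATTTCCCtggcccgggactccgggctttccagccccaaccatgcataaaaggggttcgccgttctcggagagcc
CXCL3: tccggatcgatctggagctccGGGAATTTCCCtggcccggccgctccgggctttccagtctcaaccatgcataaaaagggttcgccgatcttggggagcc
Over the 250 bases, CXCL1 and CXCL3 were identical at 81.4% of aligned positions, CXCL2 and CXCL3 at 73.3%, and CXCL1 and CXCL2 at 70.4%. These genes are close paralogs, and a probe set for 1 of them can also read transcripts of another.

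Levels were read against a dim limit of 5.21, the 30th percentile of gene means, with the median gene at 6.40. CXCL9 and CXCL3 lay below it in all 18 arrays, and the other 8 members above it in all 18. Levels are compared between groups within a probe set and never between genes. Among all genes, arrays did not overlap the control arrays, in either direction, for 22.8% with YAP/TAZ cDNA, 24.3% with ESR1 cDNA and 38.9% with both. In the shLATS1B and shLATS1+2 arrays this share was 38.4% and 34.6%, so a lack of overlap is common here. Changes are differences of group means in log2 from a linear model over all 18 arrays (limma), with p-values adjusted by Benjamini-Hochberg over all genes of a comparison, and a change passed the test at an adjusted p under 0.05.

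**Figure D1:**
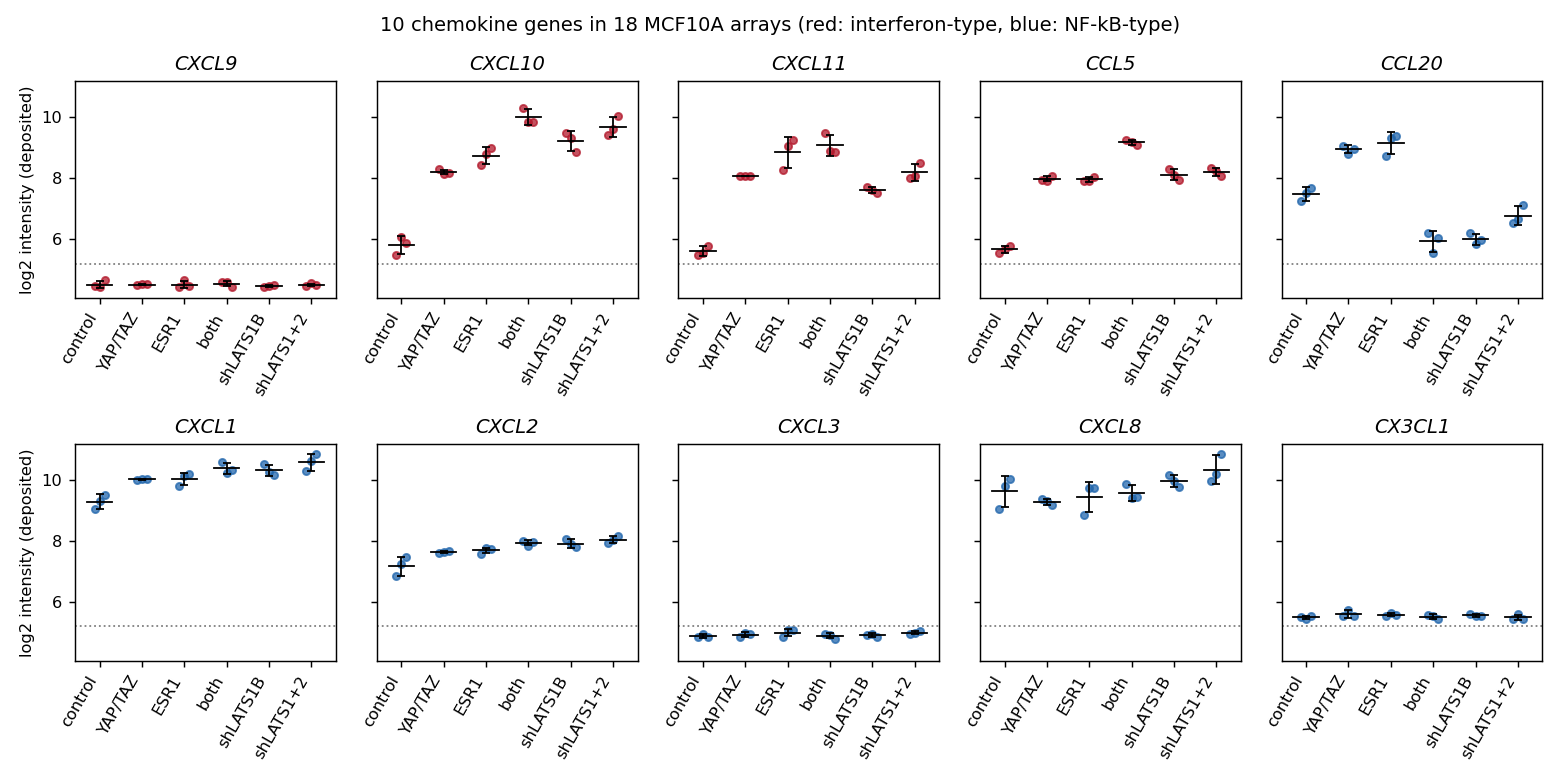
Log2 intensity of each member in the 6 groups of arrays. Points are the 18 arrays, long bars group means, error bars 1 SD (n = 3), and the dotted line the dim limit of 5.21. CXCL10, CXCL11 and CCL5 lay lowest in the control arrays, CCL20 was high in the arrays with a single cDNA and low with both or in the knockdowns, and CXCL9 and CXCL3 stayed under the limit.

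CXCL10, CXCL11 and CCL5 rose in every group against the control arrays. CXCL10 (probe set 8101126) read 5.50, 6.08 and 5.87 in the control arrays, 8.29, 8.16 and 8.18 with YAP/TAZ cDNA, and 8.44, 8.79 and 9.01 with ESR1 cDNA. It read 10.30, 9.86 and 9.86 with both cDNAs, 9.48, 9.31 and 8.85 in the shLATS1B arrays and 9.42, 9.61 and 10.05 in the shLATS1+2 arrays. The control arrays lay apart from and below all 15 others, while the groups between the YAP/TAZ arrays and those with both cDNAs followed each other closely. Against control, CXCL10 was 18.3-fold higher with both cDNAs (log2 change 4.19, SE 0.197, adjusted p 8.2e-11 by limma) and 14.7-fold higher in the shLATS1+2 arrays (3.88, adjusted p 3.1e-10). The rise was 10.5-fold in the shLATS1B arrays, 7.60-fold with ESR1 cDNA and 5.25-fold with YAP/TAZ cDNA, with a largest adjusted p of 5.3e-07 by limma. The order of its levels was both cDNAs, shLATS1+2, shLATS1B, ESR1, YAP/TAZ, control. The only step between neighbouring groups to pass the test was the last, down to control. Groups further apart in this order did differ. The shLATS1+2 arrays lay above the YAP/TAZ arrays by 1.48 and above the ESR1 arrays by 0.95, and both passed. The shLATS1B value passed against YAP/TAZ cDNA (1.00) and against both cDNAs (-0.80, adjusted p 0.014 by limma). The latter did not pass without shLATS1B array 3.

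CXCL11 (probe set 8101131) had a different order, with the shLATS1B arrays next to the control. It read 5.49, 5.55 and 5.80 in the control arrays, 8.07, 8.07 and 8.06 with YAP/TAZ cDNA, and 8.29, 9.05 and 9.25 with ESR1 cDNA. It read 9.49, 8.91 and 8.85 with both cDNAs, 7.72, 7.63 and 7.51 in the shLATS1B arrays, and 8.00, 8.07 and 8.52 in the shLATS1+2 arrays. No array overlapped the control arrays, and the ESR1 arrays overlapped those with both cDNAs. The change against control was 3.47 (11.1-fold) with both cDNAs, 3.25 (9.49-fold) with ESR1 cDNA, 2.58 (5.99-fold) in the shLATS1+2 arrays, 2.45 (5.47-fold) with YAP/TAZ cDNA and 2.01 (4.02-fold) in the shLATS1B arrays (SE 0.206, largest adjusted p 1.4e-06 by limma). Of the steps between neighbours, that from ESR1 cDNA to the shLATS1+2 arrays and that from the shLATS1B arrays to control passed the test. Set against CXCL10, the shLATS1B arrays lay below only the shLATS1+2 arrays and those with both cDNAs for that gene, and above only the control arrays for CXCL11.

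CCL5 (probe set 8014316) varied least between arrays of a group among these 3 genes. It read 5.55, 5.70 and 5.79 in the control arrays, 7.96, 7.93 and 8.08 with YAP/TAZ cDNA, and 7.93, 7.92 and 8.05 with ESR1 cDNA. It read 9.26, 9.18 and 9.10 with both cDNAs, 8.30, 8.12 and 7.94 in the shLATS1B arrays, and 8.33, 8.23 and 8.08 in the shLATS1+2 arrays. The levels formed 3 tiers that did not overlap: the control arrays, the 12 arrays of the YAP/TAZ, ESR1 and knockdown groups, and the arrays with both cDNAs. CCL5 was 11.3-fold higher with both cDNAs (3.50, SE 0.0872, adjusted p 2.3e-14 by limma). It was 4.96-fold higher with YAP/TAZ, 4.87-fold with ESR1, 5.43-fold in the shLATS1B and 5.79-fold in the shLATS1+2 arrays, with a largest adjusted p of 2.7e-11 by limma. The steps at both edges of the middle tier passed the test, and no step inside it did.

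CXCL9 (probe set 8101118), which shares CXCR3 with CXCL10 and CXCL11 and is known chiefly as a target of interferon gamma, passed no test in any of the 16 comparisons. Its arrays lay between 4.43 and 4.66, below the dim limit, and its group means spanned 0.078. Its change against control was between -0.04 in the shLATS1B arrays and 0.03 with both cDNAs (SE 0.0644). The promoter shown above holds a match to the interferon-type motif, as does that of CXCL10. At a level below the dim limit a small change cannot be seen.

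CCL20, which draws CCR6-bearing dendritic cells and lymphocytes to epithelia, rose with either cDNA alone and fell with both together and in both knockdowns. CCL20 (probe set 8048864) read 7.25, 7.53 and 7.68 in the control arrays, 9.06, 8.81 and 8.98 with YAP/TAZ cDNA, and 8.73, 9.31 and 9.40 with ESR1 cDNA. It read 6.21, 5.56 and 6.03 with both cDNAs, 6.20, 5.84 and 5.98 in the shLATS1B arrays, and 6.53, 6.68 and 7.13 in the shLATS1+2 arrays. The single-cDNA arrays lay above every control array, and the other 3 groups below. The rise was 2.75-fold with YAP/TAZ cDNA (1.46, SE 0.194, adjusted p 0.00012 by limma) and 3.16-fold with ESR1 cDNA (1.66, adjusted p 1.6e-05). CCL20 fell by 1.55 on the log2 scale with both cDNAs (adjusted p 9.3e-06), by 1.48 in the shLATS1B arrays (adjusted p 2.2e-05) and by 0.71 in the shLATS1+2 arrays (adjusted p 0.012, all by limma). The fall in the shLATS1+2 arrays did not pass the test without control array 3 (-0.61, adjusted p 0.059 by limma) or without array 1 of that group (-0.58, adjusted p 0.065). The sign of these changes follows the division of the first principal component, with the 2 single-cDNA groups on the side of the control arrays.

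CXCL1 and CXCL2, neutrophil-drawing ligands of CXCR2, rose in all 5 comparisons against control by much less than CXCL10. CXCL1 (probe set 8095697) read 9.04, 9.30 and 9.52 in the control arrays, 9.99, 10.02 and 10.04 with YAP/TAZ cDNA, and 9.81, 10.12 and 10.19 with ESR1 cDNA. It read 10.58, 10.22 and 10.34 with both cDNAs, 10.51, 10.27 and 10.18 in the shLATS1B arrays, and 10.29, 10.62 and 10.85 in the shLATS1+2 arrays. Every other array lay above the highest control array. The YAP/TAZ arrays overlapped only the ESR1 arrays. These in turn reached into the shLATS1B arrays, but not into the shLATS1+2 arrays or those with both cDNAs. In the shLATS1+2 arrays CXCL1 was higher than with YAP/TAZ cDNA by 0.56 and than with ESR1 cDNA by 0.54. Both differences passed the test, but neither did without shLATS1+2 array 3. CXCL1 was 2.46-fold higher in the shLATS1+2 arrays (1.30, SE 0.145, adjusted p 3.8e-06 by limma), 2.13-fold with both cDNAs, 2.04-fold in the shLATS1B arrays, 1.69-fold with ESR1 and 1.66-fold with YAP/TAZ cDNA (largest adjusted p 0.0044 by limma).

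CXCL2 (probe set 8100994) had the same order of groups as CXCL1. It read 6.85, 7.24 and 7.46 in the control arrays, 7.62, 7.64 and 7.68 with YAP/TAZ cDNA, and 7.59, 7.76 and 7.73 with ESR1 cDNA. It read 8.02, 7.84 and 7.98 with both cDNAs, 8.06, 7.89 and 7.80 in the shLATS1B arrays, and 7.94, 8.04 and 8.16 in the shLATS1+2 arrays. The control arrays again lay lowest with no overlap. The rise ran from 1.38-fold with YAP/TAZ cDNA (0.46, SE 0.114, adjusted p 0.019 by limma) to 1.82-fold in the shLATS1+2 arrays (0.86, adjusted p 2.3e-05). The rise with YAP/TAZ cDNA lost its call without control array 1 (0.29, adjusted p 0.065 by limma) or without any 1 of the YAP/TAZ arrays (0.44 to 0.48, adjusted p 0.053 to 0.073). When only the compared groups were fitted, CXCL2 kept its change but lost its call with YAP/TAZ cDNA (0.46, adjusted p 0.071 by limma) and with ESR1 cDNA (0.51, adjusted p 0.099). For both CXCL1 and CXCL2, the step from YAP/TAZ cDNA to control was the only one between neighbours to pass.

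CXCL3 (probe set 8100984), whose promoter letters are closest to those of CXCL1, stayed between 4.81 and 5.08 in the 18 arrays, below the dim limit. Its changes against control were 0.01 to 0.11 (SE 0.0647), and none passed the test. Without ESR1 array 1, the ESR1 change of CXCL3 became 0.19 with an adjusted p of 0.029 by limma.

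CXCL8, the neutrophil ligand better known as interleukin-8, was bright and spread widely within groups. CXCL8 (probe set 8095680) read 9.06, 9.80 and 10.03 in the control arrays, 9.38, 9.30 and 9.18 with YAP/TAZ cDNA, and 8.87, 9.73 and 9.74 with ESR1 cDNA. It read 9.88, 9.40 and 9.44 with both cDNAs, 10.17, 9.95 and 9.78 in the shLATS1B arrays, and 9.98, 10.19 and 10.86 in the shLATS1+2 arrays. The control arrays overlapped every other group. No change against control passed the test: the values ran from -0.35 with YAP/TAZ cDNA (adjusted p 0.60 by limma) to 0.71 in the shLATS1+2 arrays (SE 0.266, adjusted p 0.063). Without control array 3, the shLATS1+2 value was 0.91 with an adjusted p of 0.032 by limma. It also passed without shLATS1+2 array 1 (0.89, adjusted p 0.037 by limma) or ESR1 array 1 (0.71, adjusted p 0.025). Set against the single cDNAs, CXCL8 was higher in the shLATS1+2 arrays by 1.06 (YAP/TAZ) and 0.89 (ESR1). Both differences passed the test, where 18.9% and 19.4% of all genes were called. Neither passed without shLATS1+2 array 3.

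CX3CL1 (probe set 7996027), the membrane-held ligand of CX3CR1, lay just above the dim limit, between 5.44 and 5.76 in the 18 arrays. Its changes against control were 0.00 to 0.11 (SE 0.0612), and none passed the test. It was the flattest of the members above the limit, with a range of group means at the 25.7th percentile of all genes, against 99.97 for CXCL10 and 98.2 for CXCL1.

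**Figure D2:**
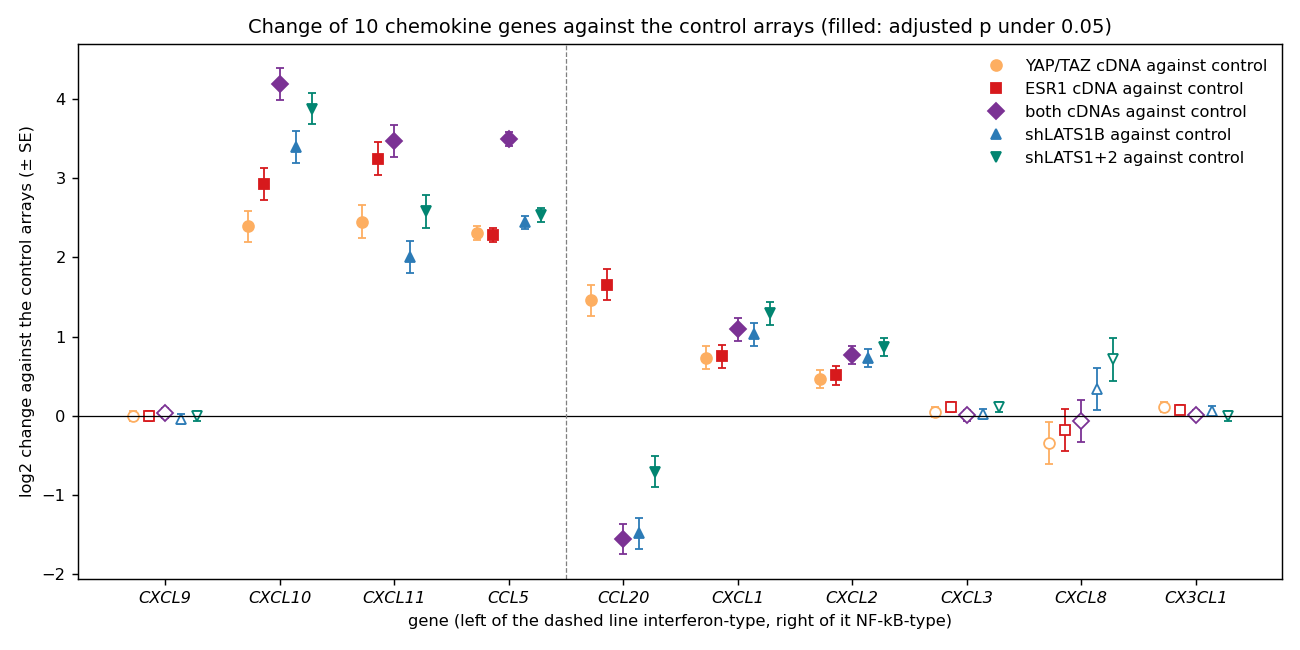
Log2 change of each member against the control arrays, with the standard error of the fit. Filled symbols passed an adjusted p under 0.05, and all 5 comparisons share the same 3 control arrays. CXCL10, CXCL11 and CCL5 lay between 2.01 and 4.19, CXCL1 and CXCL2 between 0.46 and 1.30, and CCL20 was above 0 with a single cDNA and below 0 elsewhere.

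Counted together, 6 of the 10 members passed the test in each comparison with control: CXCL10, CXCL11, CCL5, CCL20, CXCL1 and CXCL2. The share of all genes called was 7% with YAP/TAZ cDNA, 18.9% with ESR1 cDNA, 29.4% with both cDNAs, 24% in the shLATS1B arrays and 24.8% in the shLATS1+2 arrays. The 6 were all higher with each single cDNA, where 3.16% (YAP/TAZ) and 7.04% (ESR1) of all genes were called higher. In the other 3 comparisons 5 were higher and CCL20 lower. Of all genes, 14.7% were called higher and 14.7% lower with both cDNAs, 12.4% higher and 11.6% lower in the shLATS1B arrays, and 11.8% higher and 13% lower in the shLATS1+2 arrays. These comparisons share their control arrays, so the same 6 genes recurring is not a repeat measurement. Because the members were chosen with earlier results known, the counts beside these shares are a description only.

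Split by class, 3 of the 4 interferon-type members rose in each comparison, with a median change of 2.35 with YAP/TAZ cDNA, 2.61 with ESR1 cDNA, 3.48 with both cDNAs, 2.22 in the shLATS1B arrays and 2.56 in the shLATS1+2 arrays. The median over the 6 NF-kB-type members was 0.29, 0.31, 0.01, 0.20 and 0.41 in the same order. Leaving out CX3CL1 moved the latter to 0.46, 0.51, 0.01, 0.33 and 0.71. The median over all genes lay between -0.008 and 0.002. Neither class moved as a unit: CXCL9 stayed dim beside CXCL10 and CXCL11, and CCL20 fell in the same arrays in which CXCL1 and CXCL2 rose.

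The effect of combining the cDNAs was read from the interaction, which is the YAP/TAZ change in the presence of ESR1 cDNA minus that in its absence. It passed the test for 4 members, all below 0, against 19.1% of all genes in either direction and 7.68% below 0. For CCL20 the YAP/TAZ change was 1.46 without ESR1 cDNA and -3.21 with it, an interaction of -4.67 (SE 0.275, adjusted p 4.3e-09 by limma). The change turned round, and the arrays with both cDNAs lay below all control arrays.

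For CXCL11 the YAP/TAZ change was 2.45 without and 0.22 with ESR1 cDNA (interaction -2.23, SE 0.292, adjusted p 4.8e-05 by limma). For CXCL10 it was 2.39 and 1.26 (interaction -1.13, SE 0.279, adjusted p 0.009), and for CCL5 2.31 and 1.21 (interaction -1.10, SE 0.123, adjusted p 9.1e-06 by limma). In these 3 genes the combined rise was thus smaller on the log2 scale than the sum of the single changes, which was 5.70 against a measured 3.47 for CXCL11, 5.32 against 4.19 for CXCL10 and 4.60 against 3.50 for CCL5. The interactions of CXCL1 (-0.39, adjusted p 0.22 by limma) and CXCL2 (-0.21, adjusted p 0.44) did not pass. Without ESR1 array 1 and shLATS1+2 array 3 together, that of CXCL1 was -0.50 (adjusted p 0.042 by limma).

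**Figure D3:**
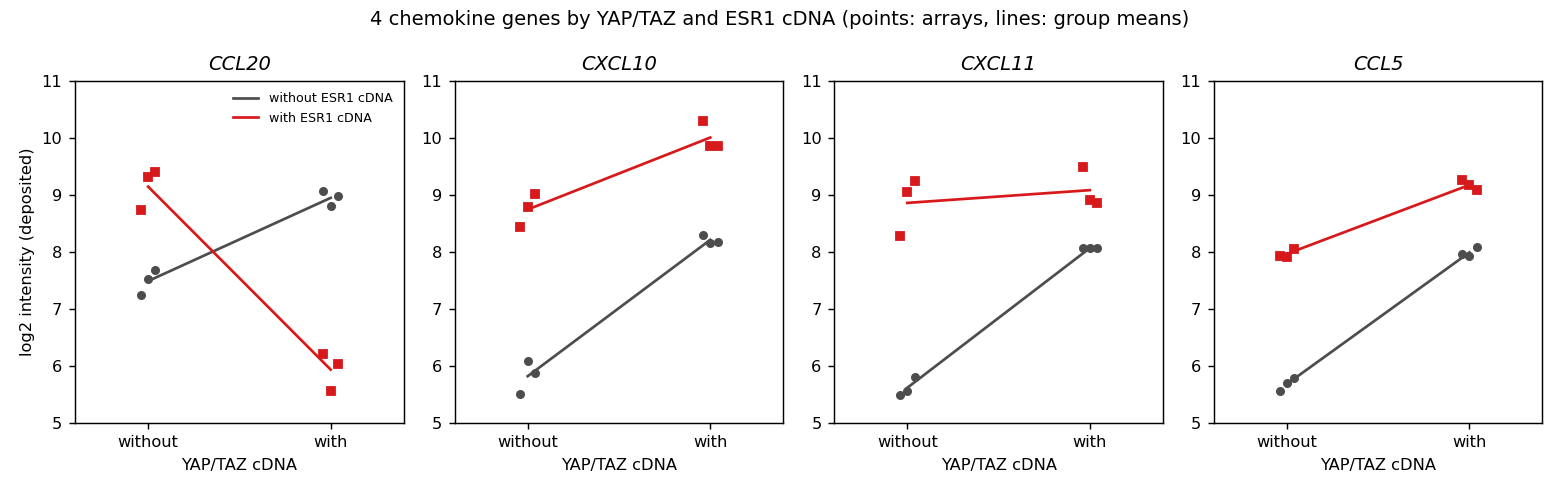
Log2 intensity of the 4 members with an interaction, without and with YAP/TAZ cDNA, in arrays without (grey) and with (red) ESR1 cDNA. Points are arrays and lines join group means (n = 3). The lines cross for CCL20, with YAP/TAZ changes of 1.46 and -3.21, and are flatter with ESR1 cDNA for CXCL10, CXCL11 and CCL5.

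Set directly against the single cDNAs, the arrays with both held more CXCL10 and CCL5. Against ESR1 cDNA alone, CXCL10 was 2.40-fold higher (1.26, adjusted p 0.00014 by limma) and CCL5 2.31-fold higher (1.21, adjusted p 3.4e-08), CCL20 fell by 3.21, and 29.1% of all genes were called. CXCL11 differed by 0.22 (SE 0.206, adjusted p 0.50 by limma). Against YAP/TAZ cDNA alone, CXCL10 rose by 1.80, CCL5 by 1.18 and CXCL11 by 1.02, and CCL20 fell by 3.02, where 22.7% of all genes were called.

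Between the single cDNAs, 0 of 10 members passed the test in limma, against 0.603% of all genes, and 2 had an unadjusted p under 0.05. CXCL11 was higher with ESR1 than with YAP/TAZ cDNA by 0.79 (SE 0.206, adjusted p 0.11 by limma) and CXCL10 by 0.53 (SE 0.197, adjusted p 0.26). In both genes the 3 ESR1 arrays lay above the 3 YAP/TAZ arrays, which held for 5.83% of all genes. Without ESR1 array 1, these differences were 1.08 (adjusted p 0.0015) and 0.69 (adjusted p 0.032 by limma). With all arrays kept, CXCL11 passed when p-values were adjusted over all comparisons together (adjusted p 0.012 by limma).

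Between the knockdowns, 0 of 10 members passed in limma, against 0.321% of all genes, and 3 had an unadjusted p under 0.05. CCL20 was higher in the shLATS1+2 than in the shLATS1B arrays by 0.77 (SE 0.194, adjusted p 0.15 by limma), CXCL11 by 0.58 (adjusted p 0.34) and CXCL10 by 0.48 (adjusted p 0.40). CCL20 passed without ESR1 array 1, which belongs to neither group but adds to the shared spread (adjusted p 0.047 by limma). The LATS2 probe set differed between these groups by -0.05 (SE 0.0631, adjusted p 0.79 by limma), which did not pass the test.

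Arrays of a group also differed in a way the members shared. Of the 7 members other than CXCL9, CXCL3 and CX3CL1, all 7 were lowest in control array 1, 6 were lowest in ESR1 array 1 (all but CCL5), and 6 were highest in shLATS1+2 array 3 (all but CCL5). All 7 were highest in array 1 of the group with both cDNAs and in array 1 of the shLATS1B group. CCL20 and CXCL8 had their highest array in common in 6 of 6 groups, although their group means moved differently. After group means were taken out, CXCL8 and CXCL1 correlated with r = 0.921, CXCL8 and CCL20 with 0.871, and CXCL8 and CCL5 with 0.258 over the 18 arrays, which share their hybridisation and scaling within an array. What sets these arrays apart was not tested.

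**Figure D4:**
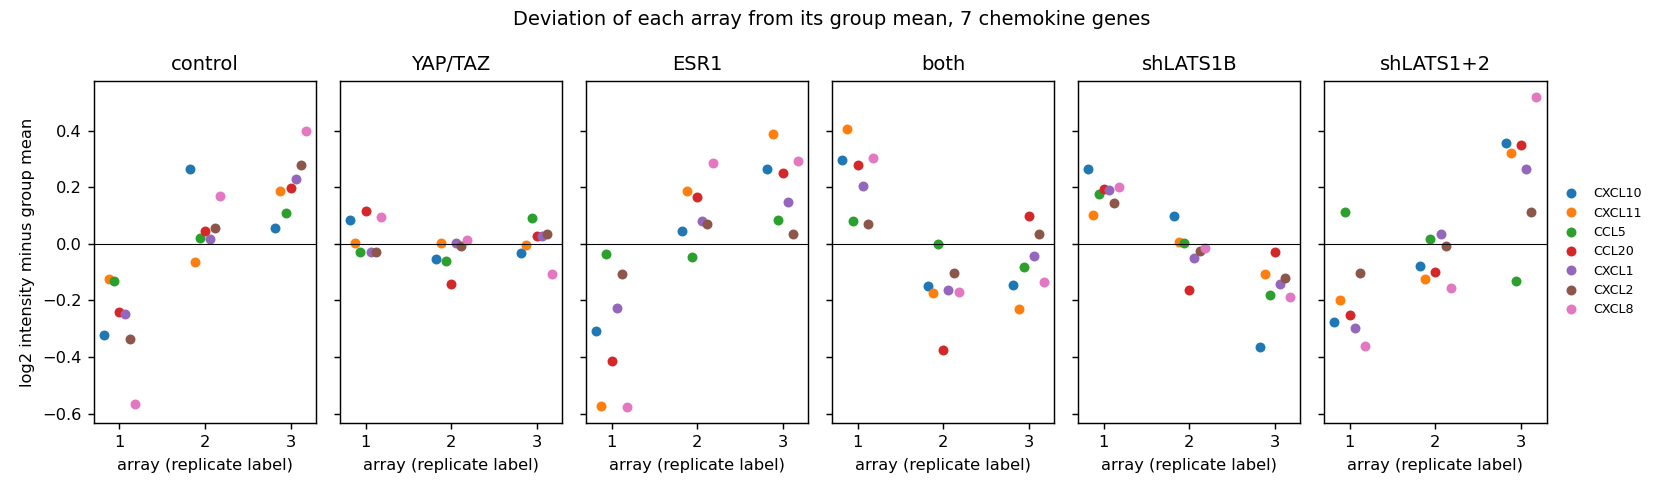
Deviation of each array from its group mean (log2 intensity) for 7 members, with replicate labels on the horizontal axis. Each colour is a gene. All 7 points lay below 0 in control array 1, 6 lay lowest of their group in ESR1 array 1, and the YAP/TAZ arrays lay closest together.

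The genes most like each member were taken by Pearson's r over the 18 arrays, which lie in 6 groups and are therefore not 18 independent points. For CXCL10 they were OASL (r = 0.988), HCP5 (0.988) and STOM (0.986), and for CXCL11 SAMD9 (0.974), SP100 (0.969) and UBE2L6 (0.963). For CCL5 they were CFB (0.989), RSAD2 (0.986) and OAS1 (0.978). OASL, SAMD9, SP100, UBE2L6, RSAD2 and OAS1 are textbook interferon-stimulated genes, and CFB encodes complement factor B. For CCL20 they were PRKAG2 (0.979), KLF6 (0.975) and WFDC12 (0.971). For CXCL1 they were PSME1 (0.968), DNAJC12 (0.950) and STOM (0.946), and for CXCL2 SAR1A (0.958), NFKBIZ (0.949) and INTS7 (0.948). CXCL8 was most like ICE2 (0.931), CD63 (0.920) and KCTD6 (0.913). The closest gene reached 0.881 for CXCL9, 0.867 for CXCL3 and 0.875 for CX3CL1, whose own variation was small. Among the members, CXCL10 correlated with CXCL1 at 0.943 and with CXCL8 at 0.348.

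The receptors of these ligands were nearly all dim. Of 22 receptors listed, 20 were measured, and 17 of these had group means below the limit in every group, among them CXCR2 (4.32 to 4.56), CCR6 (4.60 to 4.99) and CX3CR1 (4.41 to 4.57). CXCR3 read 6.34 to 6.64. Against control, 2 rose and 0 fell with both cDNAs (2 of each sign at an unadjusted p under 0.05 in limma), 2 rose and 1 fell with ESR1 cDNA, 1 rose and 1 fell in the shLATS1B arrays, 0 rose and 1 fell in the shLATS1+2 arrays, and 0 passed with YAP/TAZ cDNA (0 higher and 1 lower at an unadjusted p under 0.05). Of all genes 14.7% were called higher with both cDNAs, where the list's median change was 0.01.

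Of the 25 genes listed for interferon signalling, 23 were measured. Higher and lower genes against control numbered 5 and 0 with YAP/TAZ cDNA, 7 and 2 with ESR1 cDNA, 11 and 1 with both, 10 and 0 in the shLATS1B arrays and 8 and 0 in the shLATS1+2 arrays, with 6, 9, 13, 11 and 10 higher at an unadjusted p under 0.05 in limma. Of all genes, 3.16%, 7.04%, 14.7%, 12.4% and 11.8% were called higher in that order. Median changes of the list ran from 0.06 with YAP/TAZ cDNA to 0.23 with both. IRF9, the DNA-binding subunit of the factor ISGF3, rose by 1.33 with YAP/TAZ cDNA, 1.50 with ESR1 cDNA, 2.13 with both, 1.91 in the shLATS1B and 1.93 in the shLATS1+2 arrays (SE 0.10). Its interaction was -0.71 (adjusted p 0.0022 by limma), of the same sign as those of CXCL10, CXCL11 and CCL5. In the list as a whole, the interaction passed above 0 for 3 genes and below 0 for 4. IRF1, a factor induced by interferons, rose by 0.72 with YAP/TAZ cDNA, 1.91 with both and 1.77 in the shLATS1B arrays (SE 0.0921). Of the interferons themselves, IFNB1 read 4.28 to 4.43, IFNG 4.73 to 4.97 and IFNL1 5.78 to 6.81 over the 18 arrays.

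Of the 27 genes listed for NF-kB signalling, 26 were measured. Higher and lower genes against control numbered 7 and 0 with YAP/TAZ cDNA, 7 and 2 with ESR1 cDNA, 14 and 1 with both, 10 and 3 in the shLATS1B arrays and 9 and 2 in the shLATS1+2 arrays, with median changes from 0.03 with ESR1 cDNA to 0.17 with both. Of all genes, 3.16%, 7.04%, 14.7%, 12.4% and 11.8% were called higher and 3.84%, 11.9%, 14.7%, 11.6% and 13% lower in that order. With YAP/TAZ cDNA, 9 of the list were higher and 1 lower at an unadjusted p under 0.05 in limma. TNFAIP3, which encodes the NF-kB inhibitor A20, rose by 0.77 with YAP/TAZ and 0.66 with ESR1 cDNA. Its interaction was -1.22 (SE 0.0972, adjusted p 1.8e-07 by limma), of the same sign as that of CCL20. In the list as a whole, the interaction passed above 0 for 7 genes and below 0 for 3, with a median of 0.06. IL1B, an inducer of NF-kB, rose by 0.80 with both cDNAs, 0.86 in the shLATS1B arrays and 0.76 in the shLATS1+2 arrays (SE 0.0468), the 3 groups in which CCL20 fell. NFKBIZ, a nuclear partner of NF-kB, rose by 0.51 in the shLATS1B and 0.60 in the shLATS1+2 arrays (SE 0.0602).

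A further list held 11 genes that act on the life of such transcripts, in either direction, or process the proteins. Among them ZFP36, which binds AU-rich messages, fell in all 5 comparisons with control. Its fall ran from 0.25 with ESR1 cDNA to 0.58 in the shLATS1+2 arrays (SE 0.0719). ZC3H12A, the ribonuclease Regnase-1, rose in all 5, by 0.42 with YAP/TAZ cDNA to 0.79 with both (SE 0.0836). Of the list, 2 rose and 3 fell with both cDNAs, where 14.7% of all genes were called higher and 14.7% lower.

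Of 27 other chemokine genes measured, 1 rose with YAP/TAZ cDNA, 3 with ESR1 cDNA, 3 with both, 3 in the shLATS1B and 4 in the shLATS1+2 arrays. These counts lie near the shares of all genes called higher, which were 3.16%, 7.04%, 14.7%, 12.4% and 11.8% in that order. CXCL16, the other membrane-held chemokine, rose in all 5 comparisons, by 0.34, 0.38, 1.06, 0.79 and 0.79 in that order (SE 0.0779). CXCL17, a mucosal chemokine, rose by 0.35 with ESR1 cDNA and 1.44 with both and had an interaction of 1.01 (adjusted p 1.3e-05 by limma), opposite in sign to those of CCL20, CXCL10, CXCL11 and CCL5. Of 11 leukocyte markers measured, 7 lay below the limit in the control arrays and in those with both cDNAs; CD14, which epithelial cells can also make, rose by 2.01 with both cDNAs and read 9.01 to 11.14. The mean level of the leukocyte list was 5.41 to 5.42 in the control arrays and 5.58 to 5.63 with both cDNAs. For 6 fibroblast markers the mean level was 5.54 to 5.77 in the control arrays and 5.27 to 5.44 in the other 5 groups. The fibroblast markers did not move as a set: their median change against control was -0.01 to 0.04. Among them DCN ran from 4.45 to 7.21 over the 18 arrays, and COL1A1 from 6.28 to 6.65. The part of these markers in the chemokine changes was not tested.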

How the data were processed

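Gene expression was measured on 18 Affymetrix whole-transcript arrays, with 100 ng of total RNA on each. Log2 values of 32321 probe sets were deposited, made with affy in R per the submitters' processing notes. How background, normalization and summary were handled, and the genome build, is not given in the sources used here. If values were brought to a common distribution, a change shared by all genes cannot be seen. Precision is limited by how many arrays there are.

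Names came from the platform annotation (probe sets: 19158 with 1 symbol, 1388 with several, 11775 with none), and 19128 were matched to RefSeq (GRCh38.p14) by gene identifier. The probe set with the highest mean was kept for each of 18404 genes. It decided between several for 637 genes.

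One mean per group was fitted to all 18 arrays in R 4.3.3 with limma 3.58.1 (lmFit, contrasts.fit, eBayes; 12 residual degrees of freedom plus 3.94 from moderation). The 15 pairs of groups and the interaction were tested, two-sided, with Benjamini-Hochberg adjustment within each comparison at 0.05. The fit was tested on simulated data. The members and gene lists were chosen with earlier results of these data known. All 10 members are named, the targeted genes, the 3 genes most correlated with each member, and, from each list, up to 4 called genes with the largest change; receptors, interferons and markers named for their level were chosen with values in view. Alternatives were array centring, quantile normalization, another probe set rule, removal of dim genes, fits of only the groups compared, adjustment over all comparisons together, a replicate block, and leaving out arrays.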

Additional observations from a re-analysis of the deposited data

Results flagged for a closer look

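In 4 of the 10 chemokine genes, the change with YAP/TAZ cDNA differed between arrays with and without ESR1 cDNA by limma's test of the interaction. For CCL20 the interaction was -4.67 on the log2 scale (adjusted p 4.3e-09 by limma), with a YAP/TAZ change of 1.46 without and -3.21 with ESR1 cDNA. For CXCL11 it was -2.23 (2.45 without and 0.22 with ESR1 cDNA), for CXCL10 -1.13 (2.39 and 1.26) and for CCL5 -1.10 (2.31 and 1.21). The arrays with both cDNAs lie on the other side of the first principal component from the 3 groups they are set against, so the interaction and that division cannot be told apart. With 3 arrays in a group, no array was tested as an outlier.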

How the results depend on the processing

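Of 80 member values (10 genes in 8 comparisons), 70 stayed called or not called as before under every alternative, 3 lost a call and 7 gained one. No called value changed direction. Some values that did not pass changed sign, such as CXCL8 with ESR1 cDNA against control, which ran from -0.47 to 0.11. The counts of called members stayed at 6 to 7 against control in the shLATS1+2 arrays, at 5 to 6 with YAP/TAZ cDNA, at 5 to 7 with ESR1 cDNA, at 6 with both cDNAs and in the shLATS1B arrays, and at 4 to 6 for the interaction. Between the knockdowns the count went from 0 to 1 (CCL20, adjusted p 0.0095 by limma) and between the single cDNAs from 0 to 1 (CXCL11, adjusted p 0.012) when p-values were adjusted over all comparisons together. Between the single cDNAs it was 2 without ESR1 array 1 and shLATS1+2 array 3, and leaving out each array in turn gave 0 to 1 between the knockdowns and 0 to 2 between the single cDNAs. The 9 called steps between neighbouring groups became 7 to 12 with an array left out. CXCL8 in the shLATS1+2 arrays passed without dim genes (adjusted p 0.042 by limma). Over all genes, counts of calls went from 59 to between 33 and 544 for the knockdowns against each other, from 1289 to between 848 and 1945 with YAP/TAZ cDNA, from 3487 to between 1126 and 5776 with ESR1 cDNA, from 111 to between 2 and 3513 for ESR1 against YAP/TAZ cDNA, from 3512 to 5952 for the interaction, and from 5359 to 3273 for both cDNAs against ESR1 cDNA. Centring arrays on their medians moved the share of higher genes among calls from 37.1% to 21.8% with ESR1 cDNA, from 55.6% to 67.8% for both cDNAs against ESR1 cDNA and from 59.7% to 72.7% for the interaction. Centring on the median of the tested genes, chosen after seeing the data, moved it by over 10 points in 7 of 16 comparisons, and no called member changed direction. With the replicate number as a block, the members called stayed at 6 in each comparison with control, 0 between knockdowns and between single cDNAs, and 4 for the interaction, and 1147 genes in place of 1289 were called with YAP/TAZ cDNA. The labels share replicate numbers, but same-numbered arrays deviated together (r over 0.1) in 13 of 45 pairs, with a median r of -0.083, so no pairing was assumed.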
